A study of Mus musculus with 9 samples.

Results

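The cytosolic ribosomal proteins were taken as the genes whose symbol marks a protein of the small subunit (Rps and a number, or Rpsa) or of the large subunit (Rpl and a number, or Rplp0 to Rplp2). Only features (sets of probes) that the array annotation ties to 1 such symbol were used. This gave 105 features of 49 genes, out of 45037 features and 18193 genes on the array. The small subunit had 23 of these genes and the large subunit 26. A further 110 features named a ribosomal protein together with other genes and were left out. After a filter on dim signals, 93 features of 47 genes were tested, and Rpl3l and Rps16 had no feature that passed. Rplp1, Rps27a, Rpl3, Rpl5 and Rpl10 had no feature tied to 1 gene and are not analysed here.

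Ribosomes are built in the nucleolus from ribosomal RNA and ribosomal proteins, and most of the proteins are needed in equal numbers. The small subunit reads the messenger RNA, and the large subunit joins the amino acids. Messenger RNAs for ribosomal proteins are among the most abundant in most cells and are translated under the control of mTOR through a run of pyrimidines at their start. Motor neurons are large cells with dense stacks of rough endoplasmic reticulum, the Nissl substance, and SOD1 mutations cause a familial form of amyotrophic lateral sclerosis.

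The data were 9 mouse arrays in 3 groups of 3. The cord arrays held total spinal cord of wild-type mice by their descriptions, although the titles of all 9 arrays name ventral spinal cord. The wild-type motor neurons and the SOD1-mutant motor neurons were taken by laser capture microdissection, in which chosen cells are cut from a section. The labels do not name the SOD1 allele or its promoter, the age or disease stage, how the neurons were recognised, or whether arrays came from separate animals. All 9 titles carry the code D28, which the labels used here do not explain. What the p-values weigh is array-to-array spread, which may be technical. All 3 comparisons share arrays, so they are not independent of each other. Each array carried a trimmed mean signal of 2500.0, and median signals were 555.9 to 582.4 in cord and 268.9 to 365.5 in motor neurons. The small number of arrays limits the precision.

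The labelled cell type was checked on its markers. Of 13 tested motor neuron markers, 11 rose in wild-type motor neurons against cord and none fell. Their summed signal was 27194 to 39400 in cord and 328801 to 343814 in wild-type motor neurons. It was 311554 to 326369 in mutant motor neurons. Markers of other cells fell: 8 of 10 for astrocytes, 12 of 12 for oligodendrocytes, 9 of 9 for microglia, 11 of 11 for vessels and meninges and 8 of 8 for inhibitory interneurons. Of the excitatory interneuron markers, 6 of 7 fell and 1 rose, and of the Schwann cell markers 2 of 3 fell. No red blood cell marker passed the filter. Glial signal did not reach 0: the astrocyte sum was 424752 to 475016 in cord and 195063 to 215796 in wild-type motor neurons, and the oligodendrocyte sum 710375 to 825183 and 290091 to 308145. In such bulk samples, fewer cells of a type and less RNA per cell cannot be told apart.

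Control features at the 3′ end were brighter relative to those at the 5′ end in captured cells than in cord. The log2 ratio of the 3′ to the 5′ control feature of Gapdh was -0.28 ± 0.01 in cord, 4.03 ± 0.44 in wild-type and 4.49 ± 0.15 in mutant motor neurons (SD, n = 3 arrays each). For Actb it was 0.66 ± 0.03, 4.52 ± 0.40 and 5.26 ± 0.58. This ratio moved with every comparison against cord, and its part in the results below was not tested.

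The starts of the genes called in the same direction under all 3 scalings in wild-type motor neurons (see the counts that follow) are printed to show where runs of pyrimidines lie in them. Each sequence holds 20 bases before and 10 from the RefSeq start in GRCm38.p6, 5′ to 3′ on the strand of the gene, with the longest run of C and T in capitals. Rps25 lies at chr9:44407694-44407723 (+), Rpl14 at chr9:120571497-120571526 (+), Rps18 at chr17:33955656-33955685 (-), Rpl39l at chr16:10170208-10170237 (+) and Rpl27a at chr7:109519175-109519204 (+). Rps9 lies at chr7:3704021-3704050 (+) and Rps24 at chr14:24490658-24490687 (+).
Rps25: TCCTTTTTTTCCgacatcttagcgaggctg
Rpl14: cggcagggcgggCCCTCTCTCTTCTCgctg
Rps18: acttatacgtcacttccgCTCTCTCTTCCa
Rpl39l: cctagctcccaggCCTTTCCggatttccgg
Rpl27a: cgcgagacttcgtgagCTCCTCCCTTTTCC
Rps9: gtccaaccgccttgTCTCTCTTTgtctcgg
Rps24: acgcccccgcgctggggTCCTTCCTTgcgc

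Of the 49 genes, 43 had an entry in the RefSeq promoter table. A run of 8 or more pyrimidines that reached within 5 bases of the start was present in 17 of the 43 (39.5%), against 9.3% of the 27025 genes in the table. Of the printed genes, Rps25 and Rpl39l lack such a run, with 4 and 7 pyrimidines there. It was present in 5 of 14 genes that were higher in wild-type motor neurons than in cord, in 5 of 12 that were lower and in 7 of 15 that were not called. In the 300 bases around the start, CCGGAAG on either strand was present in 21 of 43 (48.8%) against 9.12% of all genes. GGGCGG was present in 24 (55.8%) against 35.9%, and AAGATGGC in 3 (6.98%) against 2.88%. A match describes letters and not a binding site.

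Ribosomal protein genes split in both directions between wild-type motor neurons and cord. Of 47 tested genes, 15 were higher, 13 were lower and 19 were not called. The call was limma's moderated test with a Benjamini-Hochberg adjusted p under 0.05, on the brightest feature of each gene. Over all 12983 genes, 31.1% were called higher and 36.1% lower. The median change was 0.03 on the log2 scale, against -0.10 over all genes. Groups of arrays did not overlap in 33 of the 47 genes, among them all 28 called ones. The share over all genes is not given here, so this count is not read as a trait of these genes. Changes were computed on log2(signal + 20.3), which understates those of dim features.

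**Figure D1:**
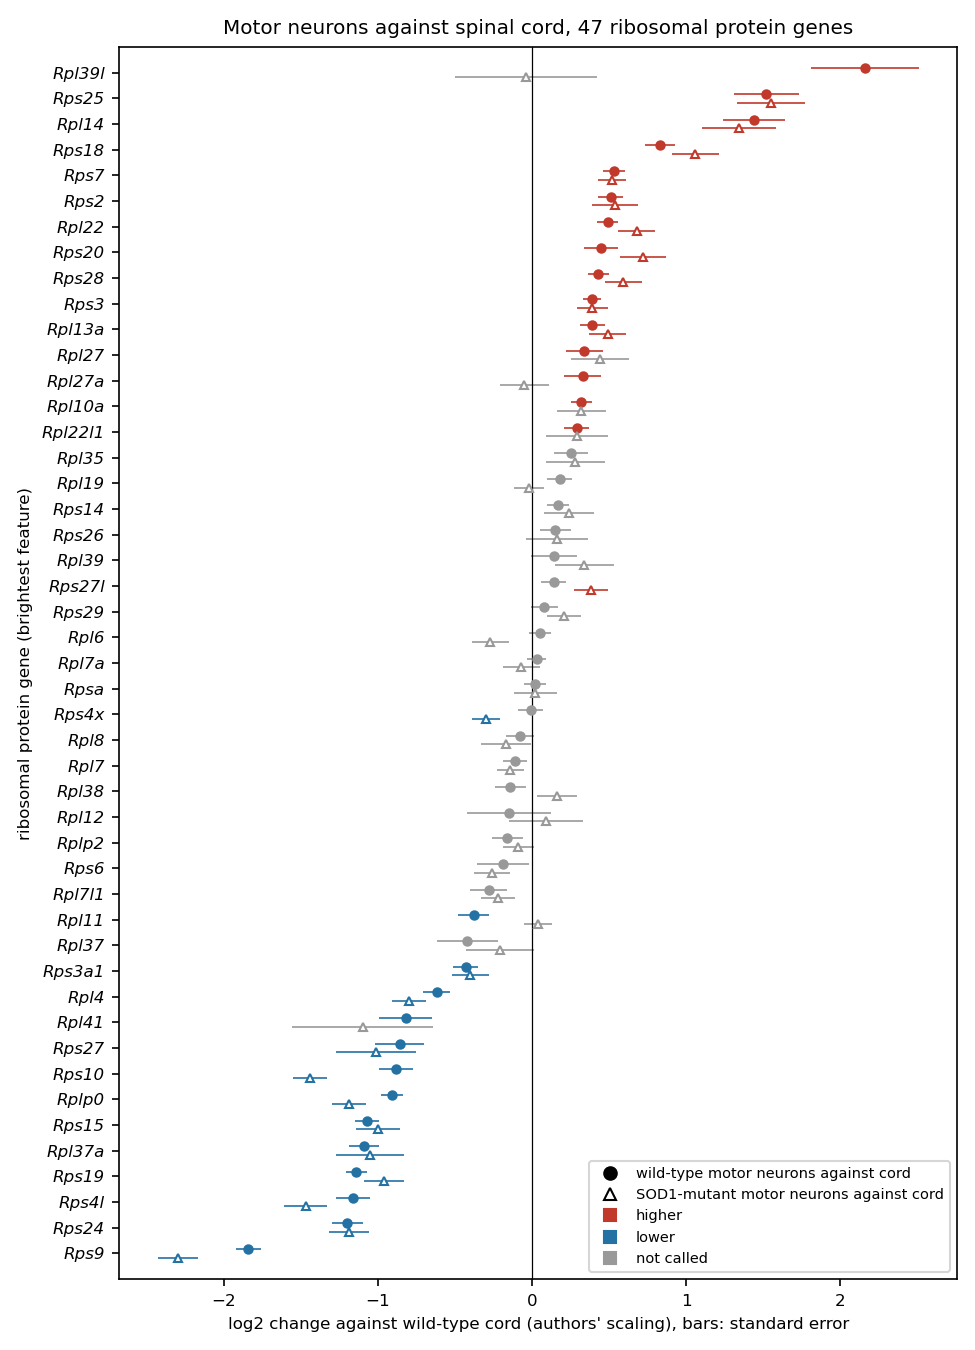
Log2 change against wild-type cord of 47 ribosomal protein genes in wild-type (filled circles) and SOD1-mutant motor neurons (open triangles), with standard errors from limma on 3 arrays a group under the authors' scaling. Rpl39l leads the wild-type rises at 2.16 and lies at -0.04 in the mutant, and Rps9 leads both sets of falls; under quantile normalization or array-median centring many of the genes near 0 change sign.

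The split depended on how the arrays were scaled. The median change over all features was -0.35 under the authors' scaling, 0.13 after quantile normalization and 0.56 after centring each array on its median. With quantile normalization 7 genes were higher and 27 lower, with a median of -0.36, against 42.2% and 26.2% of all genes. With array-median centring 35 were higher and 2 lower, with a median of 0.94, against 57.8% and 15.3%. Centring on the median of the ribosomal protein genes themselves gave 18 higher and 13 lower, against 31.4% and 34.3% of all genes. The direction of the median against cord thus differed between the scalings. In mutant motor neurons against cord the median over all features was -0.37, 0.12 and 0.48 under the same 3 scalings.

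**Figure D2:**
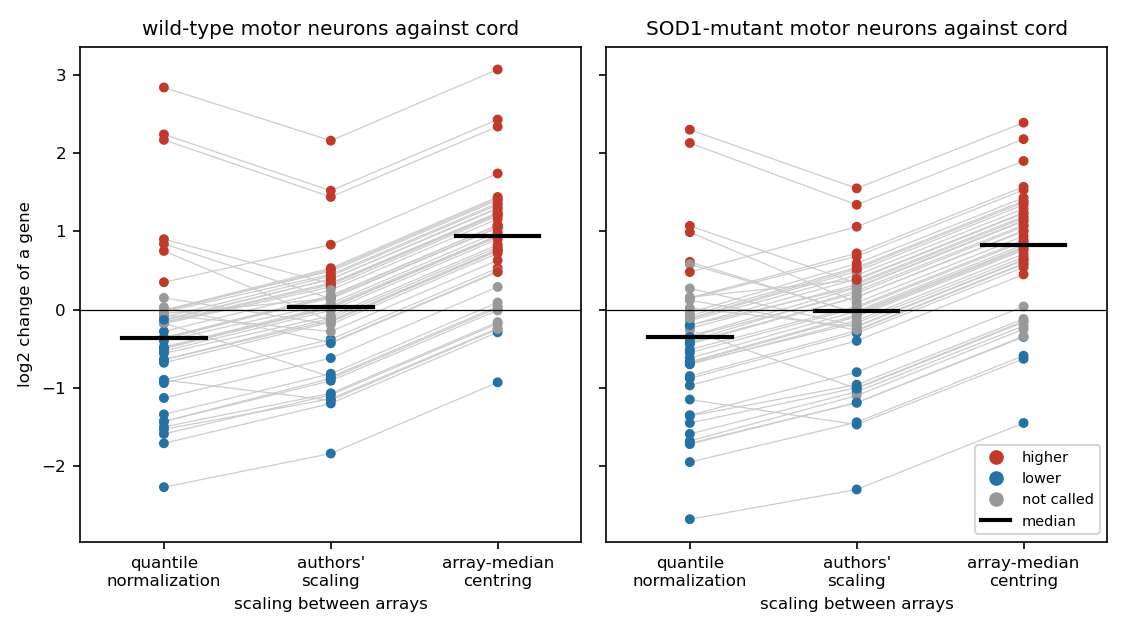
Log2 change of each of 47 ribosomal protein genes against cord under 3 scalings between arrays, with 1 grey line per gene, points coloured by call and the black bar at the median. The median in wild-type motor neurons moves from -0.36 through 0.03 to 0.94, and most genes shift together.

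Calls held in the same direction under all 3 scalings for 7 genes in wild-type motor neurons. Rpl14, Rpl27a, Rpl39l, Rps18 and Rps25 were higher (5 of 47, against 28.7% of all genes). Rps9 and Rps24 were lower (2 of 47, against 15.3%). Both shares lie below those of the array. Rps25, Rpl14, Rpl27a and Rpl39l were read from dim features, with mean cord signals of 1071, 972, 2215 and 200. The median signal of the 47 ribosomal protein genes was 45807 to 48450 on the cord arrays.

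Among small subunit proteins, 7 of 22 tested genes were higher and 8 lower, with a median of 0.05, where 31.1% and 36.1% of all genes were. Quantile normalization gave 2 higher and 13 lower (42.2% and 26.2% of all genes), and array-median centring 15 and 2 (57.8% and 15.3%). Rps25, a protein of the small subunit head used in internal initiation on some messenger RNAs, had signals of 995, 1248 and 970 in cord. They were 2325, 3831 and 3327 in wild-type and 2398, 3987 and 3255 in mutant motor neurons. Every motor neuron array lay above every cord array, while the genotypes overlapped. The rise in wild-type motor neurons was 1.52 (SE 0.21, limma adjusted p = 2.46e-04), or 2.87-fold, and it was 2.24 with quantile normalization and 2.43 with array-median centring.

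Rps18, which sits at the contact between the subunits, was bright in all groups. Its signals were 39247, 37076 and 38715 in cord, 61961, 80171 and 63746 in wild-type and 64569, 96409 and 81592 in mutant motor neurons. Cord did not overlap with either group of neurons. The rise was 0.83 (SE 0.10, limma adjusted p = 1.16e-04) in wild-type and 1.06 (SE 0.15, limma adjusted p = 3.28e-04) in mutant motor neurons. After quantile normalization the wild-type rise was 0.35 and the mutant rise 0.48, both called. Another feature of the gene fell, and with the mean of its features the wild-type call was lost (0.15).

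Rps7, Rps2 and Rps20 followed with smaller rises under the authors' scaling that turned to small falls, not called, under quantile normalization. Rps7, which can bind the p53 regulator Mdm2, was 0.53 higher (SE 0.07) and -0.01 with quantile normalization. Rps2, known for its part in decoding accuracy, was 0.51 higher (SE 0.08) and -0.02. Rps20 was 0.45 higher (SE 0.11) and -0.03. Of its 4 tested features, 3 were not called under the authors' scaling, the lowest at -0.43. Rps28 was 0.43 higher (SE 0.07) and -0.10 under quantile normalization.

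The largest fall was that of Rps9, a protein of the small subunit body involved in translational accuracy. Its brightest feature gave 46155, 44218 and 45797 in cord. It gave 11829, 13273 and 12871 in wild-type and 7799, 10834 and 9238 in mutant motor neurons. The 3 groups did not overlap. The fall from cord was -1.84 (SE 0.08, limma adjusted p = 3.32e-07), or 3.59-fold, in wild-type motor neurons and -2.30 (SE 0.13, limma adjusted p = 3.46e-06) in mutant motor neurons. Other features of this gene behaved differently, as described with the feature comparison.

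Rps24, a small subunit protein mutated in some patients with Diamond-Blackfan anaemia, gave 64498, 66655 and 57308 in cord. It gave 24313, 27952 and 30028 in wild-type and 29465, 30175 and 23380 in mutant motor neurons. Cord lay above all neuron arrays and the genotypes overlapped. The fall was -1.20 (SE 0.10, limma adjusted p = 9.97e-06), and all 5 of its tested features fell, by -1.20 to -2.46. With array-median centring its fall was -0.29 (limma adjusted p = 0.0273).

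Rps19, the gene most often mutated in Diamond-Blackfan anaemia, gave 27730, 30033 and 27476 in cord, 12732, 12943 and 12845 in wild-type and 12149, 16781 and 15087 in mutant motor neurons. Its fall of -1.14 (SE 0.07, limma adjusted p = 2.62e-06) became -0.24, not called, with array-median centring. Rps15, whose tail reaches the decoding centre, fell by 1.07 and Rps10 by 0.88 in wild-type motor neurons. With array-median centring these values were -0.16 and 0.02, neither called. All 5 tested features of Rps10 fell under the authors' scaling.

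Rpsa, Rps6 and Rps4x were not called against cord in wild-type motor neurons under the authors' scaling. Rpsa, also known as a precursor of a laminin receptor, was 0.02 (SE 0.07), but called lower with quantile normalization (-0.50) and higher with array-median centring (0.93). Rps6, the substrate of the S6 kinases downstream of mTOR, was -0.19 (SE 0.17), and 0.72 and called higher with array-median centring. Rps4x, the X-linked form, was -0.01 (SE 0.08), with calls of -0.53 after quantile normalization and 0.90 after array-median centring. In mutant motor neurons it was -0.30 (SE 0.09, limma adjusted p = 0.0222), and 0.54 with array-median centring. Rps27, a zinc-binding protein, was called lower in wild-type motor neurons, at -0.86 (SE 0.16, limma adjusted p = 0.00136), but was -0.17 after quantile normalization and 0.04 after array-median centring, neither called.

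Among large subunit proteins, 8 of 25 tested genes were higher and 5 lower, with a median of 0.03, against the same 31.1% and 36.1% of all genes. Quantile normalization gave 5 higher and 14 lower, and array-median centring 20 and 0. Rpl14 gave 894, 973 and 1048 in cord, 2176, 3522 and 2453 in wild-type and 1916, 3514 and 2269 in mutant motor neurons. All neuron arrays lay above all cord arrays. The rise was 1.44 (SE 0.20, limma adjusted p = 2.79e-04), or 2.71-fold, in wild-type motor neurons and 1.34 (SE 0.24, limma adjusted p = 0.00136) in mutant motor neurons.

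Rpl27a gave 2230, 2326 and 2088 in cord, 2787, 2879 and 2680 in wild-type and 2391, 1821 and 2263 in mutant motor neurons. The wild-type neurons lay above both other groups, and the rise against cord was 0.33 (SE 0.12, limma adjusted p = 0.0414). Rpl22, an RNA-binding protein that is dispensable for general translation, gave 34989, 32989 and 32715 in cord and 46882, 48692 and 45695 in wild-type motor neurons. It was 0.49 higher (SE 0.07, limma adjusted p = 2.39e-04), and -0.0026 under quantile normalization. Of its 3 tested features, 2 were higher under the authors' scaling, and the feature ending in _at was -0.23 and not called.

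Rpl37a gave the largest fall of the large subunit, from 59109, 64977 and 55646 in cord to 24983, 31351 and 28381 in wild-type motor neurons. The fall was -1.09 (SE 0.10, limma adjusted p = 1.99e-05), and -0.18, not called, with array-median centring. Rpl11, which can hold back Mdm2 when ribosome assembly is disturbed, gave 46094, 48450 and 46817 in cord and 37194, 41246 and 31061 in wild-type motor neurons. In mutant motor neurons it gave 49226, 50450 and 45962. The wild-type neurons were lower than both other groups, with -0.38 against cord (SE 0.10, limma adjusted p = 0.0108), and 0.53 with array-median centring, which was called higher. Rpl38, known for its effect on the translation of Hox messenger RNAs, was -0.14 (SE 0.10) and not called, but was called lower after quantile normalization (-0.64) and higher after array-median centring (0.77).

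In the stalk, which recruits elongation factors to the large subunit, Rplp0 and Rplp2 could be tested. Rplp0, its base, gave 53616, 57219 and 53179 in cord, 28185, 29953 and 28804 in wild-type and 21280, 25490 and 25079 in mutant motor neurons. The 3 groups did not overlap, and cord was highest. Its fall from cord was -0.91 (SE 0.07, limma adjusted p = 5.80e-06) in wild-type and -1.19 (SE 0.11, limma adjusted p = 2.88e-05) in mutant motor neurons. With array-median centring these were -0.01, not called, and -0.35, still called. Rplp2 was -0.16 (SE 0.10) in wild-type motor neurons and not called, but was called lower after quantile normalization (-0.68) and higher after array-median centring (0.75).

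Paralogues replace a standard protein in some tissues. Rpl39l, the paralogue of the exit tunnel protein Rpl39 that is best known from the testis, was dim in cord at 254, 167 and 179. It gave 1456, 738 and 796 in wild-type and 133, 197 and 259 in mutant motor neurons. Its signal passed the level of the bacterial control features on 2 of 3 cord arrays, all 3 wild-type neuron arrays and 1 of 3 mutant arrays. The wild-type neurons stood above both other groups, which overlapped. The rise against cord was 2.16 (SE 0.35, limma adjusted p = 6.69e-04), or 4.47-fold, with 1 cord array below that level.

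Rps4l, a paralogue of Rps4x, gave 5357, 5517 and 5350 in cord, 2227, 2570 and 2464 in wild-type and 1775, 1826 and 2233 in mutant motor neurons. It fell by 1.16 in wild-type motor neurons (SE 0.11, limma adjusted p = 2.49e-05), with -0.25, not called, under array-median centring. Rpl22l1 was 0.29 higher (SE 0.08, limma adjusted p = 0.011), with -0.18 under quantile normalization. Rps27l, a p53-responsive paralogue of Rps27, was 0.14 (SE 0.08) and Rpl7l1 -0.28 (SE 0.12). Neither was called, while with array-median centring both were called higher, at 1.05 and 0.63.

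The ratio of a paralogue to its parent within an array is not moved by centring, but quantile normalization can move it. Of 4 pairs in 3 comparisons, 4 of 12 tests had groups that did not overlap. The log2 ratio of Rpl39l to Rpl39 was 2.02 higher in wild-type motor neurons than in cord, and 2.41 lower in mutant than in wild-type motor neurons (a difference of -2.41). The log2 ratio of Rps27l to Rps27 was 1.0 higher in wild-type and 1.39 higher in mutant motor neurons than in cord. After quantile normalization these Rps27l values were 0.12 and 0.43, while the Rpl39l values were 1.99 and -2.48. Under the authors' scaling each of these had an exact permutation p of 0.1, the smallest that 3 arrays against 3 allow, and an adjusted p of 0.3 over 12 tests. None passed the threshold.

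Some ribosomal protein genes had features that disagreed. At the level of features, 26 of 93 were higher in wild-type motor neurons and 31 lower, against 24% and 41.5% of all 27022 features. Of 21 genes with 2 or more tested features, 3 had features called in opposite directions, and the median span between the features of a gene was 1.08. Over the array, 1291 of 3722 genes with 2 or more called features (34.7%) had opposite calls, against 3 of 14 ribosomal protein genes. Features ending in _x_at, whose probes can match several transcripts, made up 40 of the 105. Of the 38 tested, 11 were higher and 14 lower.

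**Figure D3:**
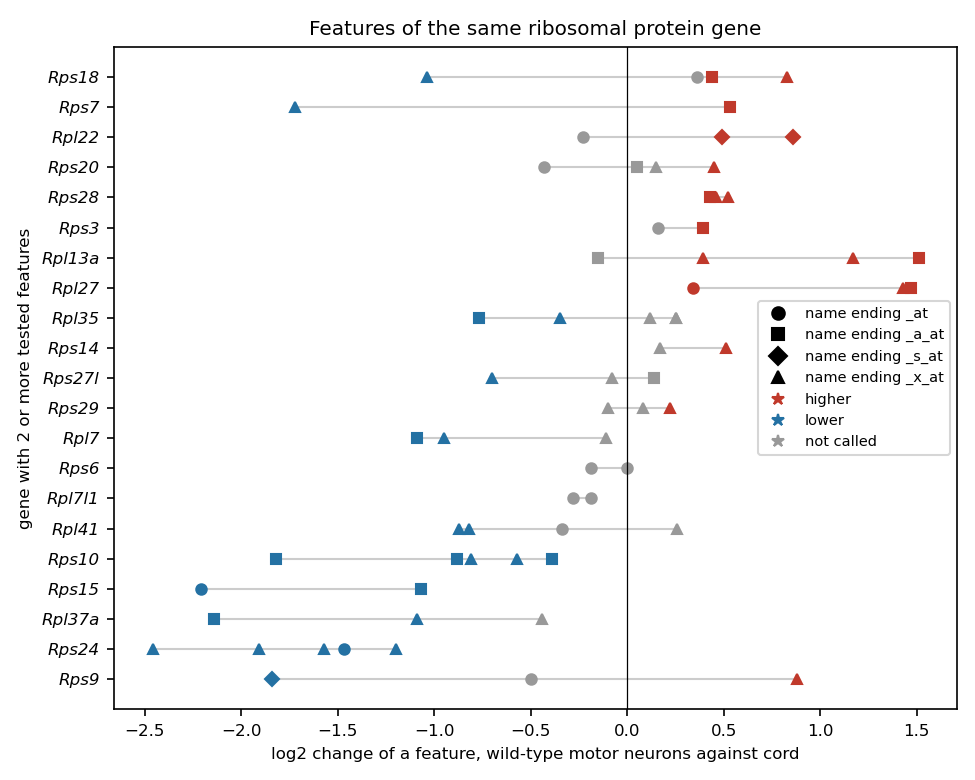
Log2 change in wild-type motor neurons against cord of each tested feature of 21 ribosomal protein genes under the authors' scaling, with marker shape for the name ending and colour for the call. Rps18, Rps7 and Rps9 have features called on both sides of 0, while all 5 features of Rps24 and of Rps10 lie below 0.

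The features of Rps7 were the clearest case besides Rps9. The feature ending in _a_at gave 61112, 59404 and 55673 in cord and 84246, 87200 and 82790 in wild-type motor neurons. The feature ending in _x_at gave 40164, 39605 and 38426 and then 10755, 13192 and 12070. So the first rose by 0.53 and the other fell by 1.72 (SE 0.09, limma adjusted p = 8.82e-07), with no overlap in either. For Rps18, another feature ending in _x_at fell from 45291, 41573 and 39108 to 17476, 23175 and 20950. It fell by 1.04 (SE 0.11, limma adjusted p = 5.25e-05), against the rise of 0.83 in its brightest feature. With the mean of its features in place of the brightest, Rps7 was -0.59 and called lower.

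The comparison of mutant motor neurons with cord gave a like split. Of 47 genes, 11 were higher and 12 lower, against 28.4% and 35.3% of all genes, with a median of -0.02. Without mutant replicate 1 the count of higher genes was 17. Quantile normalization gave 6 higher and 25 lower (39% and 24.6% of all genes). Array-median centring gave 35 higher and 4 lower (51.9% and 14.5%). Under all 3 scalings Rpl14, Rps18 and Rps25 were higher (3 of 47, against 25.8%), and Rplp0, Rps10, Rps4l and Rps9 were lower (4 of 47, against 14.3%). In this comparison Rpl41 and Rps27l joined Rps18, Rps7 and Rps9 as genes with features called in opposite directions. With the mean of its features Rps9 was 0.67 higher than in cord, opposite to its brightest feature.

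Between the genotypes no ribosomal protein gene was called. Mouse Sod1 was measured by 4 features, and none was called between mutant and wild-type motor neurons. The feature brightest in cord gave 96983, 101356 and 101398 in wild-type and 84714, 131987 and 120343 in mutant motor neurons, and the groups overlapped. The labels do not name the allele, so these values check no label.

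Of 47 ribosomal protein genes, 0 were higher and 0 lower by limma in mutant against wild-type motor neurons, and 6 had an unadjusted p under 0.05, as did 15.2% of all features (4117 of 27022). Over all genes 0.169% were called higher and 0.0847% lower. The median change was 0.01, and from the 10th to the 90th percentile the changes ran from -0.32 to 0.23, with a median SE of 0.16. The median rose to 0.15 without mutant replicate 1. The 6 genes were Rpl11 (0.42), Rpl6 (-0.31), Rps4x (-0.30), Rps9 (-0.46), Rps10 (-0.55) and Rpl39l (-2.20). A p over the threshold does not show that the genotypes are alike.

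Rpl39l was furthest from 0 among the genes. All 3 mutant arrays (133, 197 and 259) lay below all 3 wild-type neuron arrays (1456, 738 and 796), a difference of -2.20 (SE 0.41, limma adjusted p = 0.0665). Only 1 of the 3 mutant arrays passed the level of the control features, so the size of this difference is uncertain. It was called when all 9 arrays shared 1 fit (limma adjusted p = 0.0189). That fit called 358 of 12983 genes higher and 303 lower, against 22 and 11 in the main fit. The adjusted p of Rpl39l ran from 0.0189 to 0.321 over the alternatives. Against cord its change in mutant neurons was -0.04 (SE 0.46). Rps10, picked out after its values were seen, was -0.55 (SE 0.15, limma adjusted p = 0.139), with signals of 29532, 39843 and 32507 in wild-type and 20500, 24988 and 23640 in mutant motor neurons. Its other 4 tested features were -0.22, -0.06, 0.21 and -0.21. With all 9 arrays in 1 fit it was called (limma adjusted p = 0.034), and over the alternatives the adjusted p reached 0.688 with the mean of its features (-0.17).

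Of the 93 features, 1 was higher and 0 were lower between the genotypes, against 0.152% and 0.0703% of all features, and 13 had an unadjusted p under 0.05 by limma, beside the 15.2% of all features. The called feature, that of Rps9 ending in _x_at, was picked out after its values were seen. It gave 618, 983 and 1078 in cord and 1325, 1513 and 2109 in wild-type motor neurons. In mutant motor neurons it gave 17858, 26742 and 15408. The mutant arrays were far above all others, with no overlap.

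The rise of this feature between the genotypes was 3.57 (SE 0.24, limma adjusted p = 1.29e-04). It ranked 4 by p-value and 7 by rise among the 27022 tested features. Leaving out each array in turn gave 3.34 to 3.76. Against cord it was 0.88 higher in wild-type neurons (SE 0.27, limma adjusted p = 0.0174), a call lost without cord replicate 1 (0.64, limma adjusted p = 0.057) or wild-type neuron replicate 3 (0.69, limma adjusted p = 0.0733). The other features of Rps9 did not share the rise: the brightest, ending in _s_at, was -0.46 (SE 0.16, limma adjusted p = 0.217) and the dim one, ending in _at, was 0.36 (SE 0.57, limma adjusted p = 0.801). The features of this gene therefore do not give 1 direction for Rps9 between the genotypes.

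**Figure D4:**
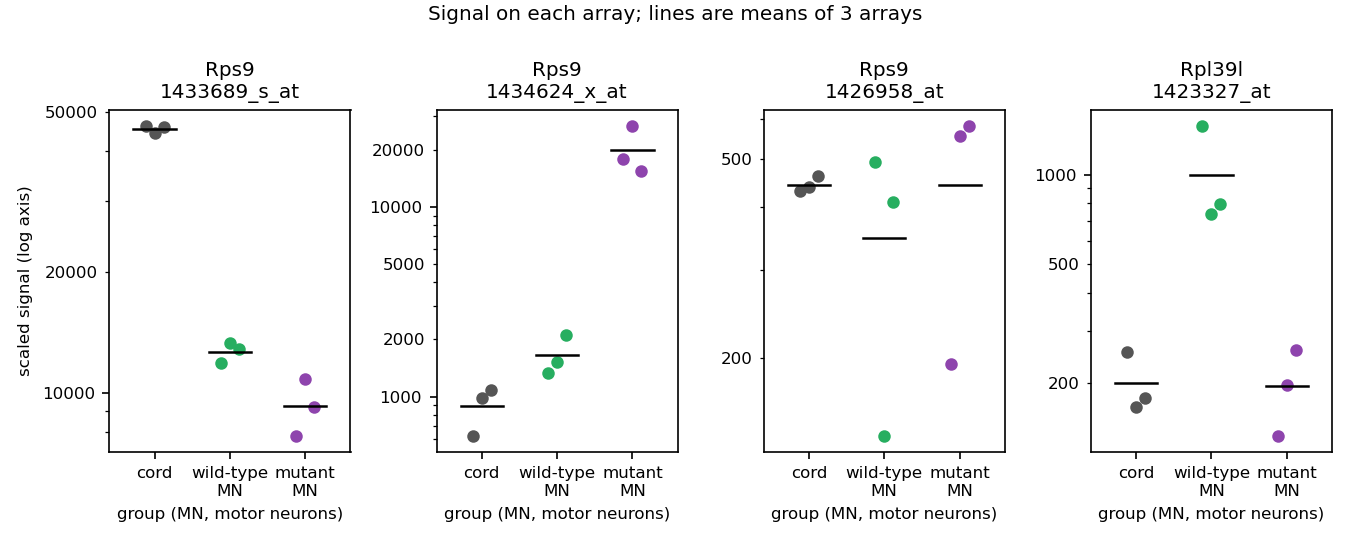
Scaled signal on each of 9 arrays (log axis, a different range in each panel) for the 3 Rps9 features and the Rpl39l feature, with lines at the mean of 3 arrays. The feature ending in _x_at lies at 15408 to 26742 in mutant neurons and at most 2109 elsewhere, and Rpl39l is highest on the 3 wild-type neuron arrays.

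**Figure D5:**
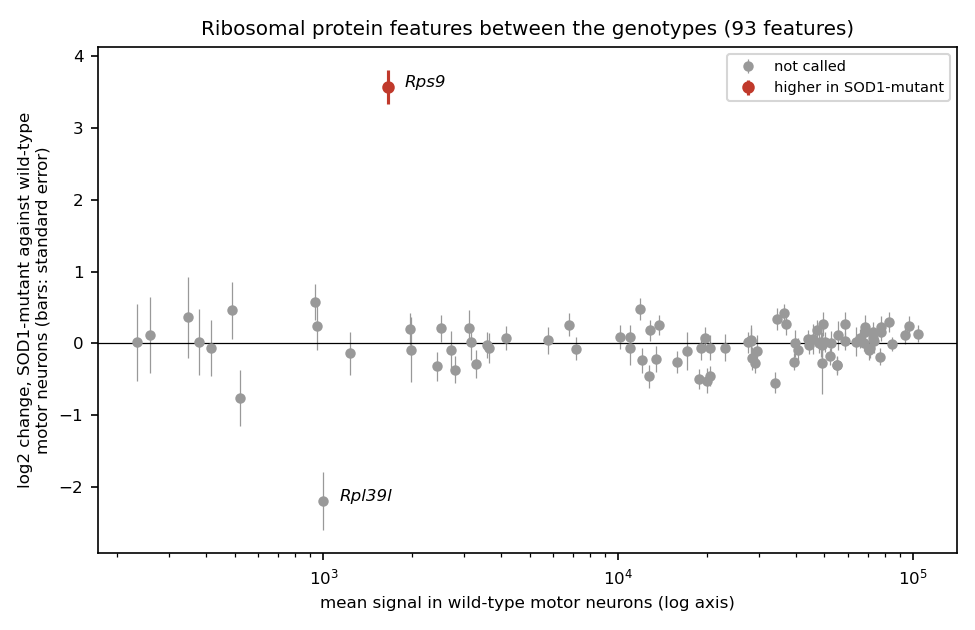
Log2 change of 93 ribosomal protein features in SOD1-mutant against wild-type motor neurons, with standard errors, plotted against the mean signal in wild-type motor neurons (log axis). The Rps9 feature at 3.57 is the called one, and Rpl39l at -2.20 is not called.

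Summed marker signals of 4 cell types did not overlap between the genotypes. Astrocyte markers summed to 195063 to 215796 in wild-type and 241075 to 262384 in mutant motor neurons. Oligodendrocyte markers summed to 290091 to 308145 and 346285 to 359738, and microglia markers to 7304 to 7555 and 9325 to 10706. Motor neuron markers were lower in the mutant, at 328801 to 343814 and 311554 to 326369. Among all marker genes, 1 was called between the genotypes: Gja1, a gap junction protein of astrocytes, was 1.25 higher (limma adjusted p = 0.017). Over all genes 0.169% were called higher and 0.0847% lower. The part of these marker signals in the genotype values above was not tested.

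Other genes of the translation pathway were taken from lists by function. Their counts in wild-type motor neurons stand against 31.1% higher and 36.1% lower over all genes, 42.2% and 26.2% after quantile normalization and 57.8% and 15.3% after array-median centring. Among elongation factors and related genes with pyrimidine-run messenger RNAs, 8 of 17 were higher and 6 lower in wild-type motor neurons than in cord. With quantile normalization 7 were higher and 7 lower, and with array-median centring 15 and 0. Eef1a1, which brings transfer RNA to the ribosome, was -1.26 (SE 0.14, limma adjusted p = 6.47e-05), and -0.35, not called, with array-median centring. Eef2k, the kinase that inhibits Eef2, was 1.84 higher, Eef1akmt1, which methylates Eef1a1, 1.87 higher, and the release factor Etf1 1.39 higher. These 3 rises were called under all 3 scalings.

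Of the initiation factors, 21 of 33 were higher and 7 lower, with a median of 0.49. Eif4b, a cofactor of the helicase Eif4a, gave 16900, 17691 and 15334 in cord and 2234, 2337 and 2755 in wild-type motor neurons. Its fall of -2.76 (SE 0.11, limma adjusted p = 3.47e-07) was called under all 3 scalings, as were the rises of Eif1ax (1.74), the cap-binding Eif4e2 (1.44) and the large subunit factor Eif6 (1.36). With quantile normalization 16 were higher and 8 lower, and with array-median centring 31 and 1.

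Of the assembly and nucleolar genes, 22 of 50 were higher and 14 lower, with a median of 0.27. With quantile normalization 28 were higher and 8 lower, and with array-median centring 39 and 4. Tsr1 (2.53), Rpf2 (2.34) and Nhp2 (2.02) were higher and Lsg1, a GTPase of large subunit maturation, was lower (-2.49), all under each scaling. Of the RNA polymerase I genes, 9 of 18 were higher and 4 lower, with 12 and 1 after quantile normalization and 14 and 1 after array-median centring. Polr1c rose from 836, 1195 and 890 to 26659, 24581 and 20815, a change of 4.61 (SE 0.16, limma adjusted p = 2.09e-07). Polr1e (1.71) and Polr1d (1.52) were higher and Taf1b (-2.27) lower, again under each scaling.

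Of the genes that signal to ribosomal protein translation, 10 of 26 were higher and 9 lower, with 11 and 6 after quantile normalization and 16 and 4 after array-median centring. Rps6kb2, an S6 kinase (-2.46), Akt1s1, which inhibits mTORC1 (-2.15), and Deptor, an mTOR-binding inhibitor (-2.02), were lower under each scaling. Of the ribosomal stress and p53 genes, 1 of 10 was higher and 5 were lower, with 2 and 5 after quantile normalization and 4 and 1 after array-median centring. Cdkn1a, a cell cycle inhibitor and p53 target, was -2.08 and lower under each scaling, while Phlda3 (-1.14), Mdm2 (-1.13) and Mdm4 (-0.87) were not called with array-median centring, where Mdm4 was 0.03. Of the ribosome rescue genes, 6 of 12 were higher and 4 lower, with 7 and 3 after quantile normalization and 8 and 0 after array-median centring. Ascc3 (1.64), Hbs1l (1.35) and Gtpbp2 (0.98) were higher under each scaling, and Rnf25 (-1.10) was -0.19, not called, with array-median centring. Fau, a small subunit protein outside the symbol rule, was -0.63 (SE 0.12, limma adjusted p = 0.00197) and 0.28 with array-median centring.

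Against cord, mutant motor neurons gave 8 higher and 8 lower for elongation, 18 and 6 for initiation, 17 and 17 for assembly and 8 and 4 for RNA polymerase I. They gave 8 and 9 for signalling, 1 and 5 for p53 and 5 and 4 for rescue, where 28.4% of all genes were higher and 35.3% lower. Quantile normalization gave, in the same order, 7 and 7, 15 and 9, 22 and 12, 10 and 1, 10 and 6, 2 and 5, and 5 and 2. Array-median centring gave 10 and 0, 26 and 1, 29 and 6, 13 and 2, 15 and 4, 3 and 4, and 7 and 1. Between the genotypes, 1 gene of these lists was called by limma, where 0.169% of all genes were called higher and 0.0847% lower. Tsc2, an upstream inhibitor of mTOR, gave 2216, 1357 and 2076 in wild-type and 630, 597 and 534 in mutant motor neurons, with no overlap. Its change was -1.62 (SE 0.27, limma adjusted p = 0.0485). The call was lost in 12 of 17 alternatives, among them each left-out array, and the adjusted p ran from 0.00427 to 0.339.

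Mitochondrial ribosomal proteins serve a separate ribosome that translates the mitochondrial genome. Of 76 genes, 55 were higher and 5 lower in wild-type motor neurons than in cord, with a median of 0.67, against 31.1% and 36.1% of all genes. With quantile normalization 55 were higher and 3 lower (42.2% and 26.2% of all genes), and with array-median centring 75 and 0 (57.8% and 15.3%). In mutant motor neurons against cord, 44 were higher and 11 lower (28.4% and 35.3% of all genes), with 43 and 9 after quantile normalization and 65 and 0 after array-median centring. Between the genotypes 0 of the 76 were called by limma, where 0.169% of all genes were called higher and 0.0847% lower. An unadjusted p under 0.05 by limma was found for 22 of the 76, all of them lower. Over all features, counted singly and not by gene, 15.2% had such a p in either direction. These were 4117 of 27022 features, of which 1921 were higher. The median was -0.21.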

How the data were processed

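The deposited values were array signal intensities on a linear scale that the authors had made; every array has the same trimmed mean of 2500.0, as the values show. For the summarisation step, settings were not given in the sources used here. Features were named through the platform annotation, and only those with 1 gene symbol (34945 of 45037) could stand for a gene. The filter and the fit also held the features with several genes (932) or no gene (9160). Signals were taken as log2(intensity + 20.3), the 10th percentile. Features were kept where the mean of the log2 group means passed the 40th percentile. This filter was first run on linear means and changed after those results were seen; the linear form is among the alternatives. The brightest feature stood for a gene. Comparisons were fitted in limma 3.58.1 (R 4.3.3) on the 6 arrays compared, with a threshold of 0.05. Benjamini-Hochberg adjustment ran over all features tested, and a gene took the adjusted p of its brightest feature. In the alternative with the mean of a gene's features, it ran over the averaged values. The fit was tested on simulated data.

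The members and lists were chosen with earlier results of these data known. Named genes were the 8 largest called rises and falls whose groups did not overlap, a set of members always named (the stalk, the paralogues and their parents, and members with known roles outside translation), genes with opposite features and up to 4 called genes of each list with the largest change; genes called in all 3 scalings and other features or genes are said to be chosen after their values were seen, as were the promoter windows, the run threshold and the motifs. Alternatives were quantile normalization, centring on the array median or on the members, other filters and pseudocounts, the mean of a gene's features, 1 fit of all 9 arrays, a replicate block and leaving out each array. Same-numbered wild-type and mutant motor neuron arrays had correlations of 0.145, 0.171 and 0.00228, and differently numbered ones -0.185 to 0.0635. These values do not settle whether the numbers pair the arrays, and the main fit used no pairing. Promoters came from RefSeq (GRCm38.p6).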

Additional observations from a re-analysis of the deposited data

How the results depend on the processing

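Of 641 alternative values of single genes or features, 595 kept their direction and side of the threshold. Of the rest, 31 lost the call, 4 gained one and 11 reversed. Quantile normalization alone gave 27 kept, 4 lost and 7 reversed, and array-median centring 27, 10 and 1. The tally does not hold every ribosomal protein gene. A change of sign counts there as reversed, whether or not the new value was called. Rpsa, Rps4x, Rpl38 and Rplp2, not called in wild-type motor neurons under the authors' scaling, are outside it. Quantile normalization called these genes lower and array-median centring called them higher. In wild-type motor neurons, calls outside the tally turned to the opposite call with array-median centring for Rpl11 (-0.38 to 0.53) and Rps3a1 (-0.43 to 0.48). With quantile normalization they did so for Rpl10a (0.32 to -0.17) and Rps3 (0.39 to -0.13). Others changed sign and lost the call: Rpl4 (0.29), Rpl41 (0.09) and Rps27 (0.04) with array-median centring. With quantile normalization these were Rpl13a (-0.14), Rpl22l1 (-0.18), Rpl27 (-0.16) and Rps28 (-0.10). Quantile normalization and array-median centring gave, for wild-type motor neurons against cord, 7 and 35 higher, 27 and 2 lower, and medians of -0.36 and 0.94. For mutant motor neurons against cord they gave 6 and 35 higher, 25 and 4 lower, and medians of -0.35 and 0.83. The mean of the features of a gene gave a median of -0.08 in wild-type motor neurons. Leaving out each array gave 10 to 17 higher in mutant motor neurons, and medians of -0.08 to 0.15 between the genotypes. Under quantile normalization the wild-type values turned to -0.01 for Rps7, -0.02 for Rps2, -0.0026 for Rpl22 and -0.03 for Rps20, and the mutant values to -0.04 for Rps28, -0.08 for Rps2 and -0.11 for Rps7. With array-median centring Rps10 turned to 0.02 in wild-type motor neurons. With the mean of features Rps7 turned to -0.59 and -0.71, and Rps9 to 0.67 in mutant motor neurons, since their features had opposite calls. The other causes were not tested. Rpl39l did not pass the filter at the 60th percentile, so it has no value there. The filter on linear means kept the counts of members and gave an adjusted p of 0.0804 for Rpl39l between the genotypes by limma.

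With the replicate block, 2 members were lower between the genotypes, Rpl39l (limma adjusted p = 0.0452) and Rps10 (limma adjusted p = 0.0397). With all 9 arrays in 1 fit, 2 were also lower. Calls rose over the whole array in both settings. Of 12983 genes, the block gave 147 higher and 115 lower and the 1 fit 358 and 303, against 22 and 11 in the main fit. The replicate numbers were not shown to pair the arrays. Signal over background limits Rpl39l in cord and mutant motor neurons, where 2 of 3 and 1 of 3 arrays passed the level of the control features.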

Other observations

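Among 102 tested features that name a ribosomal protein with other genes, 1 was called between the genotypes. Over all features 0.152% were called higher and 0.0703% lower. The signals of the called feature were 304, 570 and 278 in cord and 3795, 1799 and 2765 in wild-type motor neurons. In mutant motor neurons they were 7711, 15040 and 12737, with no overlap between the groups. The change between the genotypes was 2.09 (SE 0.30, limma adjusted p = 0.0332). It was chosen after its values were seen, and it is not assigned to a gene.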
